A study of Mus musculus with 43 samples.

Results

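Sorted tumor cells were compared with cells of the same line that had been set aside before the sorter. Of the 43 libraries of the series, 6 were used for this comparison, namely 3 of cells passed through a BD Influx cell sorter without pre-enrichment (FACS-only) and 3 of cells put away beforehand (Pre-FACS), and they were picked by their sample titles. All are bulk RNA of PD798, a cell line grown from a pancreatic tumor of KPCY mice, in which Cre is driven by the Pdx1 promoter (Pdx1-Cre) and which carry p53 L/+ and Rosa YFP/YFP among their other alleles. Cells were cultured in DMEM with serum and dissociated before any handling, so both groups share the line, its alleles and the dissociation. The labels of all these libraries speak of tumor cells mixed into mouse blood, whereas the description of the processing conditions in the study does not. By that description FACS-only cells were taken from the sample that was also pre-enriched, which had been given magnetic particles and red cell lysis buffer, whereas the Pre-FACS aliquot was only said to be put away ahead of sorting. All values are of 1 line, and nothing says that the 3 libraries of a group came from separate cultures, so that p-values measure only the spread between these libraries, which may be technical. FACS-only cells also spent longer out of culture than the Pre-FACS aliquot, and time, sorting and any exposure to particles and lysis buffer cannot be told apart between these groups. Another 6 libraries of the same table serve as a reference, 3 of cells held in staining buffer on the bench for the same period (Mock) and 3 of cells passed through a magnetic and acoustic pre-enrichment and then the sorter (Pre-enriched).

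Cells that are detached, suspended and moved through fluid lines are known to switch on a fast transcriptional program. Immediate-early genes such as Fos and Egr1 need no new protein for their transcription. NF-kB, which signals damage and inflammation, induces its own inhibitors Nfkbia and Tnfaip3 together with chemokines such as Cxcl1. ATF4 is the transcription factor of the integrated stress response, and its targets supply amino acids and restart translation.

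Sorted cells differed from the starting cells in few genes and by small amounts. Expression is given as TPM, a transcript level corrected for gene length and scaled to the same total in each library, and differences as FACS-only minus Pre-FACS on the log2(TPM + 1) scale, where a change of a weakly expressed gene is understated. TPM keeps no record of read numbers, so the depth of the libraries is unknown and counting errors could not be given. Of 13845 genes, 12159 reached 1 TPM in at least 3 of the 12 libraries and were tested with limma, and 15 of these (0.123%) differed at a Benjamini-Hochberg adjusted p under 0.05. In FACS-only libraries 12 genes were higher (0.0987% of genes tested), namely Atf4, Gadd45g, Tnfaip3, Nfkbia, Pim1, Nr1d1, Areg, Cxcl1, Gnl3, Plk2, Bhlhe40 and Klf10, and 3 were lower (0.0247%), namely Cdkn2a, Tsc22d1 and Kifc1. The 15 differences lay between -0.69 for Kifc1 and 0.66 for Pim1 and Nr1d1. For each of the 15 the 3 libraries of a group lay entirely on 1 side of the other group, as was the case for 706 genes tested in the higher direction (5.81%) and 705 in the lower (5.8%). On mm10 the higher genes span chr15:80255184-80257541 (Atf4), chr13:51846678-51848468 (Gadd45g), chr10:19000910-19015657 (Tnfaip3), chr12:55489410-55492647 (Nfkbia), chr17:29490753-29496112 (Pim1), chr11:98767932-98775333 (Nr1d1), chr5:91139599-91148432 (Areg), chr5:90891241-90893115 (Cxcl1), chr14:31012433-31019152 (Gnl3), chr13:110395046-110400844 (Plk2), chr6:108660629-108666925 (Bhlhe40) and chr15:38291463-38300706 (Klf10). The lower genes span chr4:89274471-89294653 (Cdkn2a), chr14:76414961-76507765 (Tsc22d1) and chr17:33875659-33890661 (Kifc1), and each value is of all exons of a gene. Over all genes tested the median difference was 0, and 97.8% of genes lay within 0.5 in either direction.

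**Figure D1:**
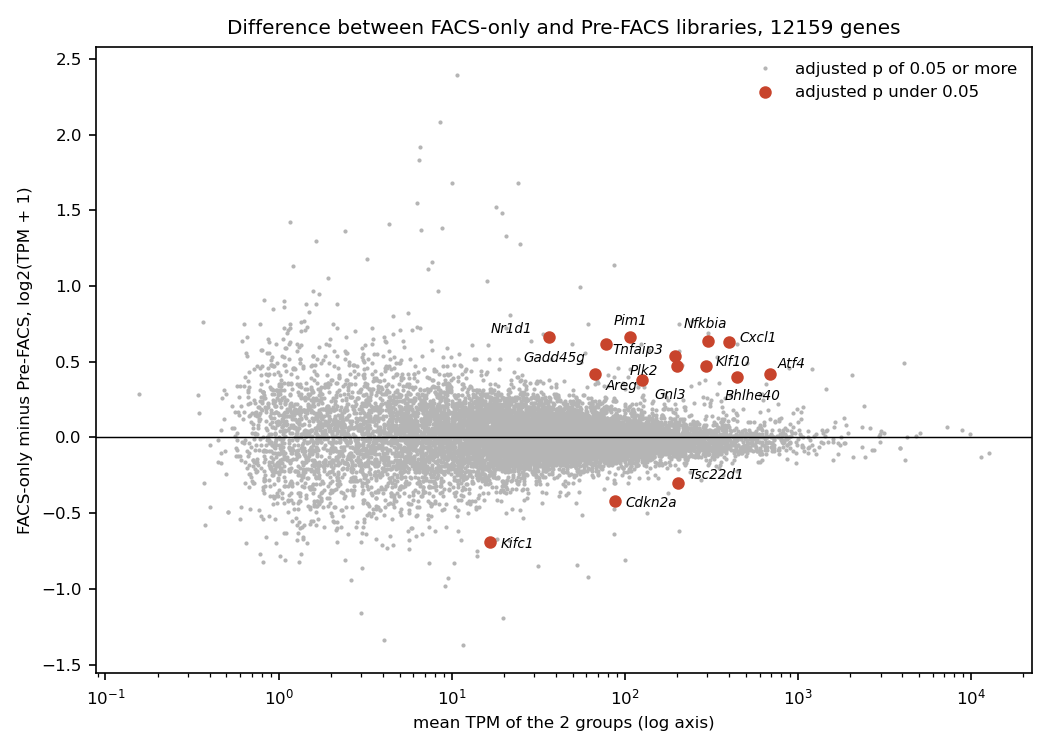
Difference of each of 12159 genes, FACS-only minus Pre-FACS on the log2(TPM + 1) scale, against its mean TPM over the 2 groups on a log axis, with the 15 genes of adjusted p under 0.05 as large red points. These genes lie between -0.69 and 0.66 and well above the lowest expression levels, while the widest scatter is found among grey points of low TPM.

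The number of calls was not stable to the choice of libraries, and it held for some genes more than for others. Leaving out FACS-only replicate 2 gave 5 calls, FACS-only replicate 3 gave 6, Mock replicate 1 and Pre-FACS replicate 2 gave 7 each, Pre-FACS replicate 3 gave 8 and Pre-enriched replicate 1 gave 9, whereas 23 and 24 genes were called without FACS-only replicate 1 and Mock replicate 3. Atf4, Gadd45g, Tnfaip3, Nfkbia and Pim1 stayed under an adjusted p of 0.05 in all 12 limma fits that dropped 1 library, Nr1d1 in 10 of the 12 fits and Areg in 8. The highest adjusted p of Atf4 over these limma fits was 0.00757. It was close to the threshold for Gadd45g (0.0439), Tnfaip3 (0.0456), Nfkbia (0.0462) and Pim1 (0.0464). Cxcl1 and Cdkn2a were kept in 6, Plk2 and Bhlhe40 in 5, and Gnl3, Tsc22d1, Klf10 and Kifc1 in 3. Limma without the mean-variance trend called 0 genes (816 at an unadjusted p under 0.05, against 846 in the fit reported), and a test that shared no information between genes called Atf4 alone.

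Promoter sequences are shown for 4 genes that were higher in FACS-only libraries, because they hold a motif of a pathway described above or of cyclic AMP signalling. RefSeq promoters (GRCm38.p6) were matched for 13 of the 15 genes, with 20 start sites among them, and the 250 bases before each start were searched on both strands. An NF-kB motif (GGGA, any base, then TTTCC) was found before Cxcl1 and Nfkbia and in 0.356% of all 32851 promoters of the same length. A cyclic AMP response element (TGAC followed by GTCA) was found before Areg and Plk2 and in 1.55% of all promoters. Each window below covers the 120 bases before the start, 5′ to 3′ on the strand of the gene, with the motif in capitals, and lies at chr5:90891125-90891244 (plus strand) for Cxcl1, chr12:55492648-55492767 (minus strand) for Nfkbia, chr5:91139479-91139598 (plus strand) for Areg and chr13:110394924-110395043 (plus strand) for Plk2.
Cxcl1: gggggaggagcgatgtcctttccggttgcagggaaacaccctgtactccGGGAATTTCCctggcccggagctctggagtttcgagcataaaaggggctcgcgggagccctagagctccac
Nfkbia: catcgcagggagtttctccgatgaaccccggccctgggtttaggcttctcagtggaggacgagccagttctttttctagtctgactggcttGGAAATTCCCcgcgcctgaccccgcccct
Areg: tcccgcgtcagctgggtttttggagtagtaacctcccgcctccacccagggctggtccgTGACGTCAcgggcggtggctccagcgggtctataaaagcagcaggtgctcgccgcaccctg
Plk2: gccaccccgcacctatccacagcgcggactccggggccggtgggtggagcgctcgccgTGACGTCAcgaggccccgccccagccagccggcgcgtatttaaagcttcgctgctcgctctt

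The motif begins 71 bases before the start of Cxcl1, 29 before that of Nfkbia, where it reads on the opposite strand, 61 before that of Areg and 62 before that of Plk2. Of the other motifs searched, the amino acid response motif (TGATG, any base, then AA) was found before Gadd45g and Tnfaip3 and in 3.45% of all promoters, and the AP-1 motif (TGA, any base, then TCA) before Tnfaip3 and in 6.75%. An E-box (CACGTG) was found before Gadd45g, Pim1, Tnfaip3 and Tsc22d1 and in 6.02% of all promoters. None of these motifs contains another, and a match of letters does not show that a factor binds there.

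Atf4 had the lowest adjusted p of all genes. In Pre-FACS libraries it stood at 600.5, 583 and 579 TPM, and in FACS-only libraries at 804, 765 and 789 TPM. The means were 587 ± 11.5 and 786 ± 19.8 TPM (SD, n = 3 each), a 1.34-fold level and a difference of 0.42 (SE 0.0428, limma adjusted p = 0.000471). Its RNA is translated preferentially when initiation is restrained. The list of ATF4 and integrated stress response genes had 31 members, all tested, of which 1 was called (Atf4 itself) and 25 had a positive difference, with a median of 0.08 that ran from 0.01 to 0.17 over 22 alternative settings. In 3 of the 31 (9.68%) all FACS-only libraries lay above all Pre-FACS libraries, and in 0 below. Over all genes tested these shares were 5.81% and 5.8%, and 0.123% were called, which is the background for every list below. Ppp1r15a, which directs the phosphatase that reverses the stress signal, stood at 172, 142 and 186 TPM before and at 219, 256 and 267 TPM after sorting (difference 0.57, limma adjusted p = 0.0622). Atf5 (3.74 and 5.54 TPM, 0.46, adjusted p = 0.733 in limma) and Jdp2 (52.2 and 63.4 TPM, 0.28, adjusted p = 0.767) also missed the threshold. Among the best-known ATF4 targets, named here after their values had been seen, Ddit3 differed by 0.07, Asns by 0.07, Trib3 by 0.11 and Chac1 by 0.16, and in each the groups overlapped. The 20 cytosolic aminoacyl-tRNA synthetases, which ATF4 also induces, had a median of 0.02, 0 calls in limma and 0 genes at an unadjusted p under 0.05, with Lars at 0.15, Tars at 0.10, Eprs at 0.10 and Hars at -0.12, and the median became -0.01 in 1 of 22 alternative settings.

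NF-kB feedback genes and a chemokine were higher in sorted cells. Of 32 genes tested of the NF-kB list, 3 were called higher and 0 lower, 8 (25%) had all FACS-only libraries above all Pre-FACS libraries and 0 the reverse, and the median was 0.05. The list was thus split between a few members with large differences and a majority near 0. Nfkbia encodes the inhibitor that holds NF-kB in the cytoplasm. It stood at 241, 221 and 249 TPM in Pre-FACS and at 336, 367 and 410.4 TPM in FACS-only libraries, which gives 237 ± 14.1 and 371 ± 37.6 TPM (SD, n = 3 each) and a difference of 0.64 (SE 0.0874, limma adjusted p = 0.00521). Tnfaip3, the ubiquitin-editing enzyme A20 that shuts NF-kB signalling off, stood at 162, 156 and 159 TPM before and 206, 253 and 238 TPM after sorting. Its difference was 0.54 (SE 0.073, limma adjusted p = 0.00521), and the Pre-FACS libraries lay within 6 TPM of each other.

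Cxcl1, a neutrophil-attracting chemokine, was at 325, 295 and 317 TPM in Pre-FACS libraries. It was at 439, 471 and 545 TPM in FACS-only libraries, a 1.55-fold level (difference 0.63, SE 0.107, limma adjusted p = 0.0368). Its neighbour Cxcl2 was weakly expressed, at 3.79, 6.38 and 2.95 TPM before and 6.87, 12.1 and 14.1 TPM after sorting (difference 1.16, limma adjusted p = 0.278). Nfkbiz, a nuclear cofactor of NF-kB, stood at 90.3, 93 and 108 TPM and at 143, 159 and 148 TPM (0.62, limma adjusted p = 0.0622). The 5 NF-kB subunits, given whole after their values had been seen, differed by 0.53 for Rel, 0.12 for Rela, 0.10 for Nfkb2, -0.11 for Relb and -0.12 for Nfkb1. The cytokine genes Tnf (8.7 and 13.4 TPM, 0.55) and Csf2 (21.6 and 29 TPM, 0.41) had groups that did not overlap, with adjusted p of 0.425 and 0.559 in limma. Ccl2 (0.08), Icam1 (0.05), Cxcl5 (-0.08) and Ccl20 (0.03), other targets of NF-kB, had overlapping groups.

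**Figure D2:**
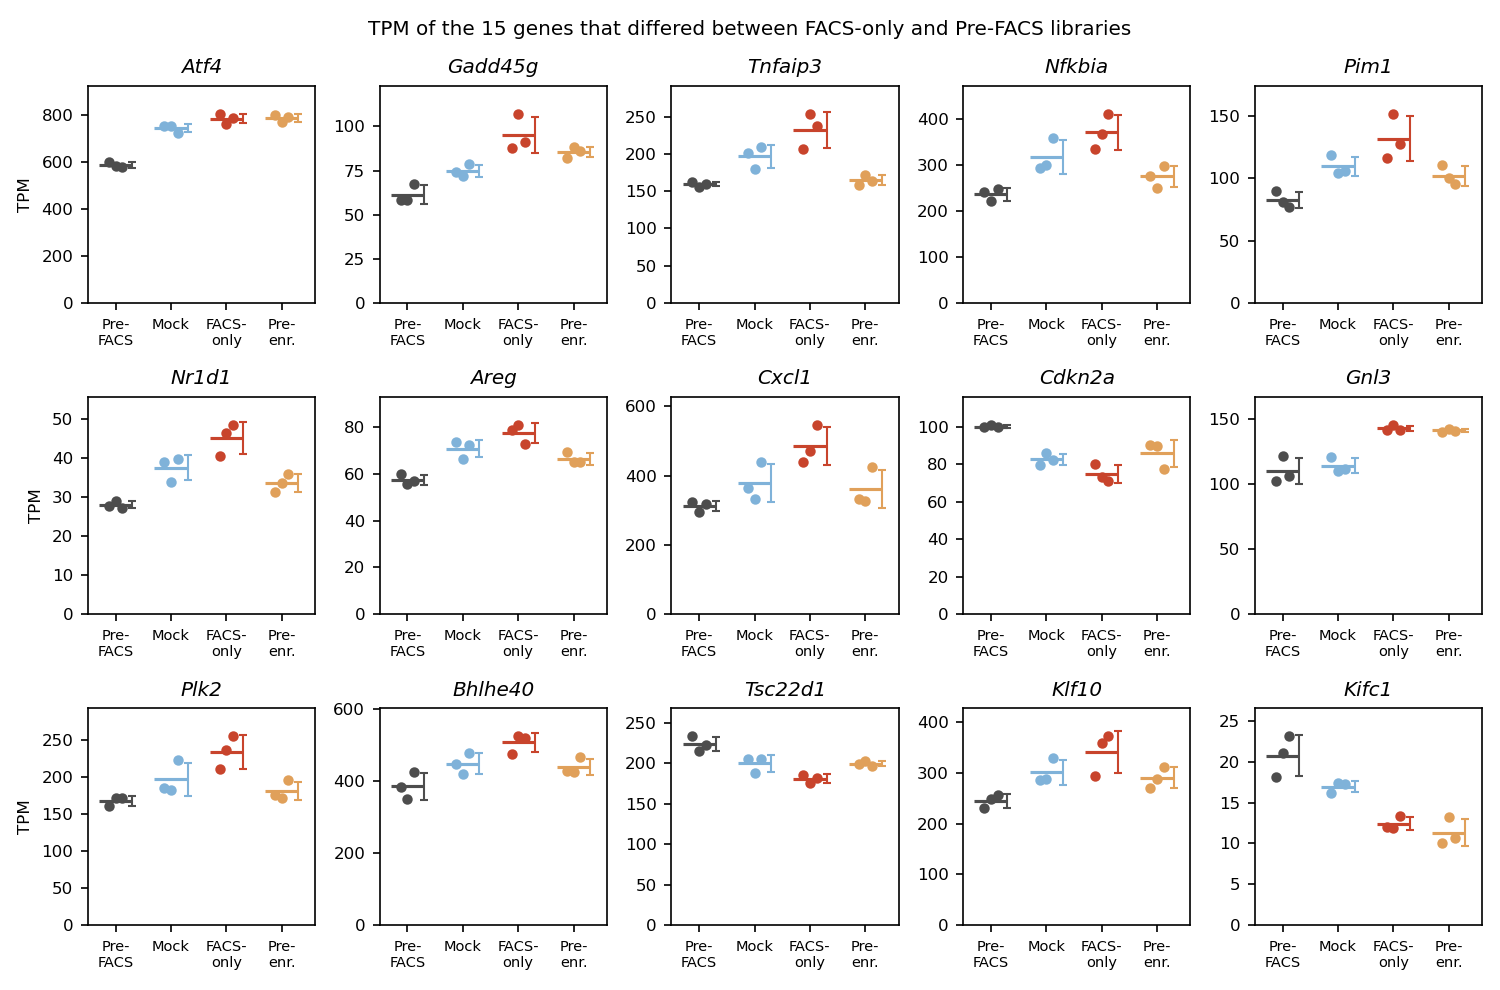
TPM of the 15 genes called between FACS-only and Pre-FACS libraries, 1 panel a gene, with 3 libraries as points, the mean as a line and the SD as a bar for Pre-FACS, Mock, FACS-only and Pre-enriched cells, each axis starting at 0. In all 15 panels the FACS-only points lie clear of the Pre-FACS points, and in the 12 genes higher in FACS-only cells the Mock mean lies between the means of those groups. The genes were chosen by the difference between those groups, which partly fixes both features.

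Immediate-early genes were the list with the highest median. Of 31 genes, 29 were tested, 26 of these had a positive difference, and the median was 0.32 beside 0 over all genes tested. In 11 of the 29 (37.9%) every FACS-only library lay above every Pre-FACS library, and in 0 below. Only Klf10 passed the test in the fit reported, which has no block for replicate number. Klf10, a zinc-finger repressor first known as a target of TGF-beta, stood at 230.0, 249 and 256 TPM in Pre-FACS and at 293, 358 and 372 TPM in FACS-only libraries (difference 0.47, SE 0.0846, limma adjusted p = 0.0379). Csrnp1, a nuclear protein induced by axin, had the largest difference of the list members with separate groups. Its values were 42.1, 44.6 and 76.8 TPM before and 88.6, 124 and 145 TPM after sorting (1.14, limma adjusted p = 0.0622). Reads of Csrnp1 are uncertain because Cx3cr1 overlaps it on the same strand. Klf6 (271 and 324 TPM, 0.26, limma adjusted p = 0.151) and the survival gene Ier3 (707 and 826 TPM, 0.22, adjusted p = 0.164) had separate groups as well.

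The classical members, named here after their values had been seen, also had positive differences, with more spread. Fos was at 670.3, 664 and 923 TPM in Pre-FACS and at 931, 988 and 1175 TPM in FACS-only libraries (0.46, limma adjusted p = 0.325). Egr1 was at 1514, 1552 and 2221 TPM and at 2032, 2247 and 2668 TPM (0.41, limma adjusted p = 0.591). Fosb was at 9.25, 8.09 and 27.9 TPM and at 23.3, 30.9 and 48.9 TPM (1.28, limma adjusted p = 0.453). In each of them Pre-FACS replicate 3 was the highest of its group, which left the groups of Egr1 and Fosb overlapping and those of Fos close to each other. Atf3 (279 and 401 TPM, 0.53) and the RNA-decay factor Zfp36 (1024 and 1386 TPM, 0.45) had separate groups, with adjusted p of 0.325 and 0.22 in limma, and Btg2 (378 and 333 TPM, -0.18) went the other way with overlap. Pre-FACS replicate 3 had the highest Pre-FACS value for 23 of the 29 genes, and FACS-only replicate 3 the highest FACS-only value for 22. Relative to the mean of the 6 libraries, the median over the list was -0.32, -0.21 and 0.05 in Pre-FACS replicates 1, 2 and 3 and 0.04, 0.12 and 0.29 in the FACS-only replicates. Without Pre-FACS replicate 3 the median difference of the list was 0.41, and without FACS-only replicate 3 it was 0.23.

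**Figure D3:**
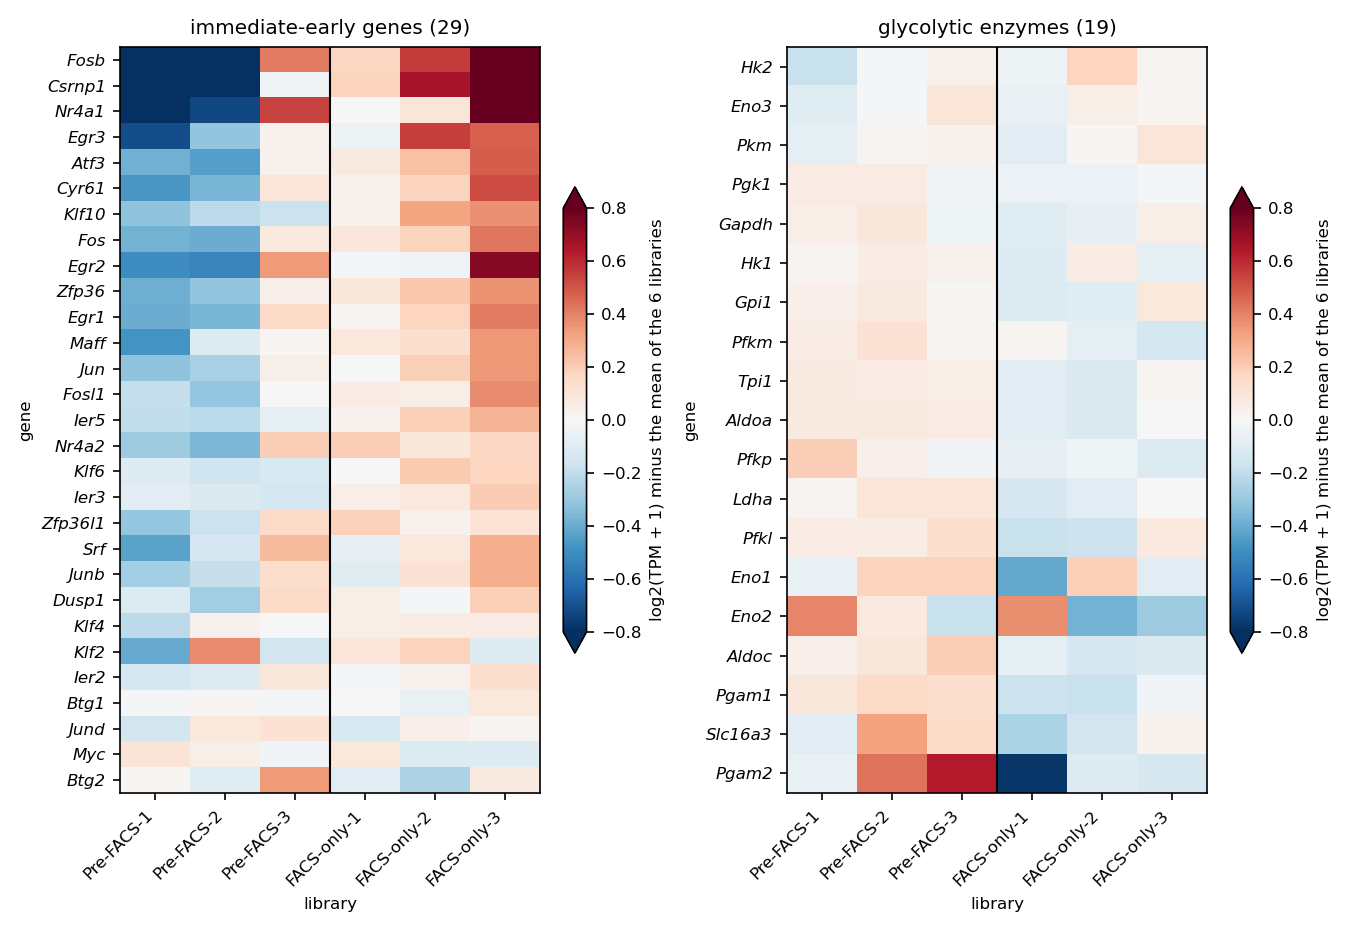
Heat maps of log2(TPM + 1) minus the mean of the 6 libraries, for 29 immediate-early genes and 19 glycolytic enzymes (rows, ordered by difference) in Pre-FACS and FACS-only libraries (columns, split by a line), with the color scale ending at 0.8 in both directions. Immediate-early genes are mostly blue in Pre-FACS replicates 1 and 2 and red in FACS-only replicate 3, with Pre-FACS replicate 3 close to FACS-only replicate 1, and glycolytic enzymes show small shifts towards blue in FACS-only libraries.

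Growth-arrest and survival genes held 3 of the called genes. The list of p53 targets, Gadd45 genes and growth-arrest genes had 25 members tested, of which 3 were called higher and 0 lower, with a median of 0.09. In 5 of the 25 (20%) all FACS-only libraries were above the Pre-FACS libraries and in 1 (4%) below. Gadd45g, a stress sensor that activates the p38 and JNK kinases, stood at 58.5, 58.1 and 67.4 TPM before and at 87.5, 107 and 91.3 TPM after sorting (1.55-fold, 0.62, SE 0.0821, limma adjusted p = 0.00521). Plk2, a polo-like kinase induced by damage and growth factors, stood at 161, 172 and 172 TPM and at 211, 237 and 256 TPM (0.47, SE 0.0829, limma adjusted p = 0.0368). Pim1, a survival kinase downstream of cytokine signalling that is not chiefly known as a p53 target, stood at 90.1, 81 and 77.3 TPM and at 116, 151 and 128 TPM (0.66, SE 0.0929, limma adjusted p = 0.00588). Plk3 was at 45.1 and 76.8 TPM with separate groups and missed the threshold (0.75, limma adjusted p = 0.16). The main p53 targets, named after their values had been seen, lay near 0, with Cdkn1a at 66.2 and 66.6 TPM (0.01) and Mdm2 at 95 and 99.7 TPM (0.07). Trp53 itself, of which these cells carry a conditional allele, was at 4.33, 3.41 and 3.71 TPM and at 6.22, 4.47 and 5.5 TPM (0.40, limma adjusted p = 0.743).

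Areg (amphiregulin), a ligand of the EGF receptor, stood at 60.1, 55.6 and 57 TPM in Pre-FACS and at 79, 80.9 and 72.8 TPM in FACS-only libraries (1.35-fold, 0.42, SE 0.0698, limma adjusted p = 0.0296). Hbegf, a second ligand that is shed from the cell surface, was at 186, 156 and 194 TPM and at 232, 249 and 265 TPM (0.48, limma adjusted p = 0.0639). Within the list of 19 MAPK feedback genes and EGF-family ligands 1 gene was called, 4 (21.1%) had FACS-only libraries above all Pre-FACS libraries and 0 below, and the median was 0.12. Dusp5 (355 and 529.5 TPM, 0.62) and Phlda1 (285 and 333 TPM, 0.23), both feedback genes of ERK signalling, overlapped between groups, with adjusted p of 0.577 and 0.521 in limma.

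Of the clock genes, Nr1d1 and Bhlhe40 were higher in sorted cells. Nr1d1 (REV-ERB alpha, a heme-binding repressor) stood at 27.8, 29 and 27.2 TPM before and at 40.4, 46.5 and 48.3 TPM after sorting (1.61-fold, 0.66, SE 0.0944, limma adjusted p = 0.00588). It overlaps Thra on the opposite strand, and whether reads were counted by strand is not given in the sources used here. Bhlhe40 (DEC1), which represses clock genes and also answers to hypoxia, stood at 381, 349 and 423 TPM and at 475, 523 and 519 TPM (0.40, SE 0.0703, limma adjusted p = 0.0368). Of 20 clock genes tested 2 were called higher and 0 lower, 6 (30%) had separate groups in the higher and 1 (5%) in the lower direction, and the median was 0.06. Per1 was at 2.54, 3.34 and 3.32 TPM and at 5.5, 6.07 and 6.62 TPM (0.80, limma adjusted p = 0.0982), and Nfil3 at 59.2 and 75 TPM (0.35, adjusted p = 0.425). The groups of Per1 and of Nfil3 did not overlap, whereas those of Dbp (0.03) and Per2 (-0.08), looked at after the fact as output and core members, did.

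Gnl3 (nucleostemin, a nucleolar GTP-binding protein) stood at 102, 121 and 106 TPM in Pre-FACS and at 141, 145 and 141 TPM in FACS-only libraries (0.38, SE 0.0659, limma adjusted p = 0.0368). The small nucleolar RNAs Snord19, Snord69 and Gm24916 lie within Gnl3, and Pbrm1 overlaps it on the opposite strand, so the source of its reads is uncertain. It was the only gene called of 40 ribosome biogenesis genes, whose median was 0.04, with 4 (10%) separate in the higher and 0 in the lower direction. Over all genes tested 5.81% were separate in the higher direction. Noc4l, a nucleolar complex protein, was at 79.8, 79.2 and 81 TPM and at 91.4, 95 and 97.3 TPM (0.24, limma adjusted p = 0.189).

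Chaperones of the endoplasmic reticulum and of the cytosol showed little difference. Of 20 genes of the unfolded protein response 0 were called in limma (4 at an unadjusted p under 0.05) and the median was 0.03, but 4 (20%) had all FACS-only libraries above the Pre-FACS libraries. Those were Hspa5, Dnajb9, Herpud1 and Syvn1. Hspa5 (BiP, the main chaperone there) was at 1255, 1287 and 1333 TPM and at 1464, 1693 and 1699.9 TPM (0.32, limma adjusted p = 0.0622), and Dnajb9, its cochaperone, at 30.5 and 44.4 TPM (0.52, adjusted p = 0.109). Among 20 heat-shock proteins the median was 0.01 with 0 calls (1 at an unadjusted p under 0.05), and it became -0.01 in 1 of 22 alternative settings. Of these 20 genes, 3 (15%) were separate in the higher and 1 (5%) in the lower direction, beside 5.81% and 5.8% of all genes tested. Hsp90aa1 was at 357 and 389 TPM (0.12, limma adjusted p = 0.577), and the stress-inducible Hspa1a, looked up after the fact, at 5.35 and 4.53 TPM (-0.19).

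**Figure D4:**
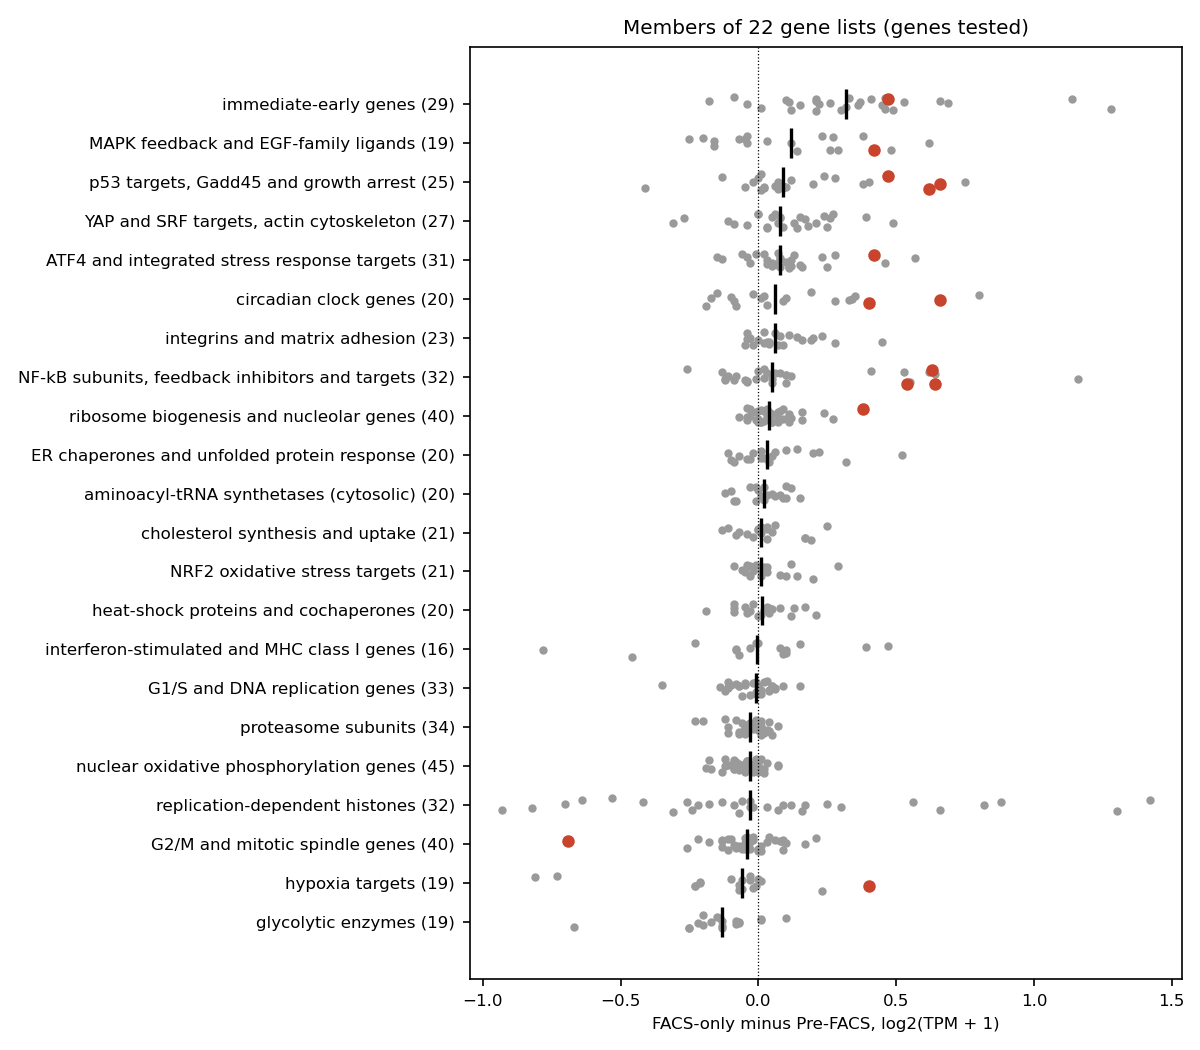
Difference FACS-only minus Pre-FACS on the log2(TPM + 1) scale for each tested member of 22 gene lists, with the number tested in brackets, called genes as red points and the list median as a black bar. Medians run from 0.32 for immediate-early genes to -0.13 for glycolytic enzymes, most lists center near 0, and replication-dependent histones scatter widest.

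Of the 3 genes lower in sorted cells, Cdkn2a had the tightest starting values. It encodes the cell cycle inhibitors p16Ink4a and p19Arf, which a value for the whole gene cannot separate, and stood at 99.8, 101 and 100 TPM in Pre-FACS and at 80.4, 73.3 and 71 TPM in FACS-only libraries (-0.42, SE 0.072, limma adjusted p = 0.0368). Tsc22d1, a leucine zipper protein induced by TGF-beta, stood at 233, 215 and 222 TPM and at 185, 175 and 182 TPM (-0.30, SE 0.0542, limma adjusted p = 0.0368). Kifc1, a kinesin that gathers spindle poles in mitosis, stood at 18.1, 21.1 and 23.1 TPM and at 12, 11.9 and 13.3 TPM (-0.69, SE 0.127, limma adjusted p = 0.0426). The gene model Gm27740 overlaps Kifc1 on the same strand, so its reads are uncertain.

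Kifc1 stood apart from other mitotic genes. Of 40 genes of G2 and mitosis it was the only call, 4 (10%) including Kifc1 and Ttk were separate in the lower and 0 in the higher direction, and the median was -0.04. Over all genes tested 5.8% were separate in the lower direction. Ttk, a spindle checkpoint kinase, was at 36.7 and 30.5 TPM (-0.26, limma adjusted p = 0.654). Of 33 genes of G1/S and DNA replication 0 were called in limma (1 at an unadjusted p under 0.05), 0 had separate groups in either direction and the median was -0.01. Both medians changed sign in 1 of 22 alternative settings. Among 32 replication-dependent histone genes differences ran from -0.93 for Hist1h1b to 1.42 for Hist1h2bb, with 0 calls (9 at an unadjusted p under 0.05). Of these, 4 (12.5%) were separate in the higher and 3 (9.38%) in the lower direction, beside 5.81% and 5.8% of all genes tested. Hist1h1b, a linker histone, was at 12.3, 14.4 and 11.6 TPM and at 7.72, 5.09 and 5.98 TPM (-0.93, limma adjusted p = 0.0622), while Hist1h2bb was at 0.262, 0 and 0.272 TPM and at 2.13, 2.75 and 1.61 TPM (limma adjusted p = 0.0658). Histone genes are near-identical and their messages mostly lack a poly(A) tail, so these values are uncertain.

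Glycolytic enzymes had the lowest median of the pathway lists, with 0 calls in limma and 8 genes at an unadjusted p under 0.05. Of 19 genes tested 16 had a negative difference, the median was -0.13, and in 8 (42.1%) every FACS-only library lay below every Pre-FACS library, against 0 in the other direction. The median lay between -0.15 and -0.12 in all 22 alternative settings. Pgam1, which converts 3-phosphoglycerate, was at 389, 406 and 401 TPM and at 324, 323 and 360.3 TPM (-0.25, limma adjusted p = 0.109), although reads of this gene could be shared with its pseudogenes, and it also was at 307 TPM in Pre-enriched libraries (-0.37 against Pre-FACS, adjusted p = 0.02 in limma). Ldha, which makes lactate, was at 4212, 4439 and 4429.6 TPM and at 3767, 3914 and 4138 TPM (-0.15, limma adjusted p = 0.525). Aldoa was at 2166, 2165 and 2157 TPM and at 1942, 1905 and 2065 TPM (-0.13, limma adjusted p = 0.479), and Tpi1 at 2537 and 2325 TPM (-0.13, adjusted p = 0.552). Gapdh (-0.07) and Pkm (0.01), looked up after the fact, overlapped between groups.

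Hypoxia targets had a median of -0.06 over 19 genes. Bhlhe40 was the only call, in the higher direction. In 5 (26.3%) the FACS-only libraries were all lower and in 2 (10.5%) all higher. Adm (adrenomedullin) was at 7.25, 4.81 and 4.63 TPM and at 3.21, 2.92 and 2.58 TPM (-0.73, limma adjusted p = 0.278), and Bnip3, a mitophagy receptor, at 256 and 219 TPM (-0.23, adjusted p = 0.382). Vegfa, the angiogenic factor, went the other way with 232 and 273 TPM (0.23, limma adjusted p = 0.226). Egln1, the prolyl hydroxylase that marks HIF for decay, was at 114, 131 and 127 TPM and at 105, 92.5 and 35.2 TPM (-0.81, limma adjusted p = 0.453), a difference that came mostly from FACS-only replicate 3.

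Further lists without any call in limma covered adhesion, metabolism and protein turnover, with 0 (interferon and MHC class I) to 7 (YAP, SRF and actin) genes of a list at an unadjusted p under 0.05. YAP, SRF and actin genes had a median of 0.08 over 27 genes, with 6 (22.2%) separate in the higher and 3 (11.1%) in the lower direction. Ankrd1, a YAP target, was at 354, 346 and 453 TPM and at 460.1, 481 and 565 TPM (0.39, limma adjusted p = 0.407), and Cyr61 at 3429.8 and 4787 TPM (0.49, adjusted p = 0.501). Integrins and matrix adhesion genes had a median of 0.06 over 23 genes, with 4 (17.4%) separate in the higher and 0 in the lower direction. Separate groups were found for Fn1 (fibronectin) at 339.8 and 390.2 TPM (0.20, limma adjusted p = 0.658) and Lama5 at 90.2 and 123 TPM (0.45, adjusted p = 0.61). Medians were 0.01 for 21 NRF2 targets and 0.01 for 21 cholesterol genes, -0.03 for 45 nuclear genes of oxidative phosphorylation and -0.03 for 34 proteasome subunits, and -0.01 for 16 interferon and MHC class I genes. Of these, Sqstm1 (p62) was at 997 and 1145 TPM (0.20, limma adjusted p = 0.425) and Psmd13 at 187 and 163 TPM (-0.20, adjusted p = 0.612). The medians of the cholesterol, oxidative phosphorylation and interferon lists changed sign in 2, 2 and 4 of the 22 alternative settings.

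The largest differences in size were those of short RNA genes and were not called. Of 24 genes with a difference above 1, 16 were small nucleolar or other small RNAs, which make up 79 of the 12159 genes tested, and of 4 genes below -1 the count was 3. Snord65 was at 6.75, 0 and 4.68 TPM and at 20.6, 18.9 and 13.9 TPM (2.39, limma adjusted p = 0.254), and Snord55 at 1.65, 1.7 and 3.42 TPM and at 15.1, 10.4 and 6.76 TPM (1.83, adjusted p = 0.151). Snord91a (1.92), Snord69 (1.68) and the microRNA gene Mir2861 (2.08) completed the 5 largest positive differences among genes with a mean of 5 TPM or more and separate groups. Each of the 5 lies within a longer gene on the same strand, among them Snord65 in 2410006H16Rik, Snord91a in Tsr1, Snord69 in Gnl3 and Mir2861 in Cdk9, so reads of the host cannot be told from those of the short RNA. The 5 largest negative differences by the same rule were Hist1h1b (-0.93), Mir1949 (-0.83), Zfp382 (-0.83), Egln1 (-0.81) and Zfp87 (-0.78), with adjusted p from limma of 0.0622, 0.551, 0.246, 0.453 and 0.325. Further genes near the threshold were Rbm39, a splicing factor (212 and 268 TPM, 0.34, limma adjusted p = 0.0622), Chka, choline kinase (253 and 329 TPM, 0.38, adjusted p = 0.0622), Adam8, a metalloprotease (19.7 and 28.7 TPM, 0.52, adjusted p = 0.0776), Mir1938, which lies within Ifrd1 (36.4 and 74.2 TPM, 0.99, adjusted p = 0.0622), and the antisense gene 1700110K17Rik (10.2 and 21.8 TPM, 1.03, adjusted p = 0.0802).

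Cells held on the bench lay between the starting and the sorted cells for the 12 genes that were higher. The Mock mean was above the Pre-FACS mean and below the FACS-only mean for all 12. Mock means of the lower genes also lay between, at 82.6 TPM for Cdkn2a, 200 TPM for Tsc22d1 and 17 TPM for Kifc1. All 15 were chosen for a difference between Pre-FACS and FACS-only libraries, so a place between them was partly fixed in advance. None of the 15 passed the threshold between FACS-only and Mock libraries (lowest limma adjusted p = 0.664). Gnl3 (0.32, unadjusted limma p = 0.000175) and Gadd45g (0.34, unadjusted limma p = 0.000775) nevertheless had all FACS-only libraries above all Mock libraries. The same was true of Nr1d1 (0.26) and Atf4 (0.08), while Kifc1 (-0.42) and Tsc22d1 (-0.14) had all FACS-only libraries below all Mock libraries. In the other called genes FACS-only and Mock libraries overlapped. The share of all genes separate between FACS-only and Mock is not given here. Over all genes tested, 0 (0%) passed the limma threshold between FACS-only and Mock (684 at an unadjusted p under 0.05), 1 (0.00822%) between Mock and Pre-FACS, which was Atf4, and 6 (0.0493%) between Pre-enriched and Pre-FACS libraries. These comparisons share libraries, so their values are only set side by side. Atf4 averaged 744 ± 17.5 TPM in Mock and 789 ± 16.2 TPM in Pre-enriched libraries (SD, n = 3 each). Against Pre-FACS it was higher by 0.34 in Mock and by 0.42 in Pre-enriched libraries, with adjusted p of 0.00755 and 0.000396 in limma, and between FACS-only and Mock the difference was 0.08. Nfkbia averaged 318 ± 36.5 TPM in Mock and 275 ± 23.7 TPM in Pre-enriched libraries, 0.42 and 0.21 above Pre-FACS (limma adjusted p = 0.627 and 0.472). Tnfaip3 averaged 197 ± 15 TPM in Mock and 165 ± 6.47 TPM in Pre-enriched libraries, 0.30 and 0.05 above Pre-FACS (limma adjusted p = 0.718 and 0.892), so its Pre-enriched mean was close to that of the starting cells. Gnl3 was at 114 ± 6.01 TPM in Mock and 141 ± 1.07 TPM in Pre-enriched libraries, with differences from Pre-FACS of 0.06 and 0.36 (limma adjusted p = 0.997 and 0.0746). Kifc1 was at 17 ± 0.643 TPM in Mock and 11.3 ± 1.67 TPM in Pre-enriched libraries, and its difference from Pre-FACS of -0.82 in Pre-enriched libraries passed the threshold there, as Atf4 did (limma adjusted p = 0.023). The immediate-early list had a median of 0.14 for Mock and 0.15 for Pre-enriched against Pre-FACS libraries, beside 0.32 for FACS-only, and the glycolytic list -0.03 and -0.05 beside -0.13. For the NF-kB list these medians were 0.03 and -0.03 beside 0.05. Cxcl1 differed from Pre-FACS by 0.27 in Mock and 0.20 in Pre-enriched libraries, beside 0.63 in FACS-only libraries. For Nfkbiz these differences were 0.07 and -0.04 beside 0.62. The cause of these differences was not tested.

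Markers were read to see which cells the libraries held. Krt8 lay between 6465 and 8262 TPM, Krt19 between 3682 and 4001 TPM and Cdh1 between 979 and 1057 TPM over the 6 libraries, so keratins and E-cadherin of epithelial cells were strongly expressed, whereas Epcam was at 33.3 to 38.9 TPM and Cldn7 at 2.78 to 6.51 TPM. Of the 17 ductal markers tested 0 were called in limma (1 at an unadjusted p under 0.05) and the median was -0.04, with Elf3 at 253 and 271 TPM (0.10) and Cldn4 at 6.44 and 5.23 TPM (-0.27). The 17 markers summed to between 26142 and 28152 TPM in Pre-FACS and between 26084 and 29606 TPM in FACS-only libraries. Ptprc (CD45) lay at or under 0.689 TPM and the platelet gene Itga2b at or under 0.776 TPM in every library. Of 30 leukocyte markers 6 were in the table and 4 tested, and their sum was 333 to 359 TPM in Pre-FACS and 306 to 324 TPM in FACS-only libraries, nearly all of it Cd14 (332 and 303 TPM, -0.13, limma adjusted p = 0.651). The part of such shifts in the called genes was not tested, and in bulk RNA fewer cells of a kind and less RNA per cell cannot be told apart. Red cell and platelet markers (7 of 18 in the table) summed to 311 to 363 TPM and 307 to 371 TPM, mostly Tfrc, which dividing cells also express, and the acinar, islet and endothelial markers (5 of 23) to 12.3 to 19.3 and 11.5 to 16.7 TPM. Of 11 mesenchymal markers 0 were called (2 at an unadjusted p under 0.05), with a median of -0.01 and with Zeb2 at 5.4 and 3.94 TPM (-0.38, limma adjusted p = 0.688), and Pdgfra stayed at or under 0.139 TPM.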

How the data were processed

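RNA of PD798 cells was sequenced after SMART-Seq v4 amplification. Per the labels and the study's methods, the authors aligned reads to mm10 with spike-in sequences added (STAR), counted them per gene (featureCounts), scaled them to the upper quartile in EDASeq and deposited TPM for 13845 genes. The gene annotation, the strand setting and the rule for choosing these genes are not given in the sources used here. Libraries were grouped by their titles. The values analysed were log2(TPM + 1) of the deposited TPM. Genes that reached 1 TPM in 3 or more of 12 libraries entered a single limma fit of 4 conditions (limma 3.58.1, R 4.3.3), with moderated variances that followed a trend on mean expression, two-sided p-values and Benjamini-Hochberg adjustment over 12159 genes (threshold 0.05). All 4 conditions thus share 1 estimate of the spread. Columns of values left unused numbered 0, and the libraries of single cells and pools were not used, since their table was normalized separately.

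Named are the genes past the threshold, the 12 of next lowest p, the 5 largest positive and 5 largest negative differences among genes with a mean of at least 5 TPM and separate groups, and up to 4 of lowest p from each of 27 lists. Genes named beyond this rule are marked as such, and a few items are not reported here. The members and lists were chosen with earlier results of these data known, so lists are described by counts and medians and were not tested as sets. Coordinates come from GENCODE M21 (mm10), in which 96.3% of the symbols were found. Alternatives were a pseudocount of 0.1, quantile normalization, equal medians, no filter, a minimum mean of 5 TPM, limma without the trend or without sharing between genes, a block for replicate number, a fit of the 6 libraries alone, and fits that dropped 1 library each. Removing a GC content and length trend was added after seeing the data.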

Additional observations from a re-analysis of the deposited data

How the results depend on the processing

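Against 15 calls (12 higher, 3 lower), limma gave 10 (8 and 2) without a filter, 0 (0 and 0) without the mean-variance trend, with 816 genes at an unadjusted p under 0.05, and 1 (1 and 0) without shared information between genes. With only the 6 libraries compared it gave 12 (12 and 0), of which 7 were among the 15, and with a GC content and length trend removed, chosen after seeing the data, 23 (19 and 4). With a pseudocount of 0.1 it gave 16 (13 and 3), with quantile normalization 12 (10 and 2), and 15 (12 and 3) with equal medians and likewise with a minimum mean of 5 TPM. Leaving out each library in turn gave 5 to 24 calls, 5 to 20 higher and 0 to 4 lower. Counts were lowest when FACS-only replicate 2 (5) or 3 (6) was dropped, at 7 when Mock replicate 1 or Pre-FACS replicate 2 was, and highest when FACS-only replicate 1 (23) or Mock replicate 3 (24) was. The cause was not tested.

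With the replicate number as a block, limma gave 77 calls (66 higher and 11 lower), the 15 among them. Deviations from the group means of same-numbered libraries correlated across genes at 0.23, 0.07 and 0.08 for replicates 1, 2 and 3. Those of differently numbered libraries correlated at -0.16 to 0.08. The former are not above 0.1 in every pair, and the sources used here do not say what a number shares. The replicates are therefore not treated as paired, although some lists were ordered alike by replicate number in both groups. Any shared part of the spread thus stays in the fit reported. In the block fit Csrnp1, which was not called in the fit reported, had a limma adjusted p of 0.000114. Other genes that missed the threshold in the fit reported also passed it there. Among them were Hbegf (limma adjusted p = 0.000496), Hspa5 (0.000665), Ppp1r15a (0.000926) and Nfkbiz (0.0204). The calls given for each gene list above are those of the fit without the block.

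Among 2604 combinations of 119 named genes with an alternative, 2416 kept direction and side of the threshold, 113 lost the call, 65 gained it and 10 changed direction, all in fits without 1 library and all of genes that were not called. Over those fits Snai2 ran from -0.02 to 0.31, Cd74 from -0.07 to 0.50, Coro1a from -0.02 to 0.42, Cd68 from -0.04 to 0.09, Tfrc from -0.04 to 0.11 and Prss2 from -0.29 to 0.15. With 3 libraries a group and unknown depth, a difference that missed the threshold was not detectable here and is not shown to be absent.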

Other observations

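Some pathways differed more between libraries of a group than between the groups, and the same replicate number stood out in both. Nuclear genes of oxidative phosphorylation, the subunits of the respiratory chain, were highest in replicate 1 of their group for 35 of 45 genes in Pre-FACS and for 36 of 45 in FACS-only libraries. Relative to the mean of the 6 libraries their median was 0.22, -0.03 and -0.08 on the log2(TPM + 1) scale in Pre-FACS replicates 1, 2 and 3 and 0.13, -0.07 and -0.12 in the FACS-only replicates, while their median difference between the groups was -0.03. ATF4 and integrated stress response genes were likewise highest in replicate 1 for 20 of 31 genes in Pre-FACS and 22 of 31 in FACS-only libraries. Cholesterol synthesis and uptake genes were highest in replicate 3 for 18 of 21 and 16 of 21 genes. Cell cycle genes were lowest in replicate 1, with a median over 40 genes of G2 and mitosis of -0.10, 0.04 and 0.10 in Pre-FACS and -0.14, 0.05 and 0.04 in FACS-only libraries. These values were looked at after the data had been seen, with no test.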
